A study of Mus musculus with 12 samples.

Results

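The response of Mirc11-/- natural killer (NK) cells to 6 h of stimulation through the activating receptor NKG2D was measured in 6 RNA sequencing libraries, out of 12 in the series. They were 3 libraries of Mirc11-/- cells stimulated for 6 h and 3 of untreated Mirc11-/- cells, chosen by their labels and described across every expressed gene. All 6 carry the homozygous deletion of Mirc11, so the untreated libraries are the baseline of the mutant and not of a normal cell. The other 6 libraries, 3 unstimulated and 3 stimulated for 6 h, are wild-type. They enter the filter and the estimate of spread behind each mutant call, and serve to ask whether the mutant response differed from theirs. All samples are labelled C57BL/6 and as spleen NK cells expanded in IL-2, a growth factor of lymphocytes. The age and sex of the mice, the way the deletion was made, the NKG2D reagent, and whether IL-2 stayed in the medium during the 6 h are not given in the sources used here. The study's title asks how Mirc11 shapes inflammatory responses of NK cells through ubiquitin modifiers, TRAF6, NF-kB and AP-1.

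NK cells are lymphocytes that kill stressed or infected cells with perforin and granzymes and secrete chemokines and cytokines. NKG2D (gene Klrk1) recognises stress-induced ligands and signals through the adaptor DAP10 (Hcst), which recruits phosphoinositide 3-kinase and Vav and leads to ERK, calcium and NF-kB signalling. IL-2 acts in parallel through JAK kinases and STAT5, which switch on genes such as Cish, Socs2 and Pim2 and sustain growth, survival and sterol and amino acid metabolism.

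Mirc11 encodes 3 microRNAs in a cluster on chromosome 8, with mature 3p sequences between 84208563 and 84208896 of GRCm38. Their mature 3p sequences (RefSeq, GRCm38.p6) are shown to define the products of the deleted cluster, with the seed, bases 2 to 8, in capitals. Levels of the mature microRNAs were not measured in these libraries. The seeds of miR-23a and miR-27a share their first bases and then differ, and that of miR-24 is unlike both.
mmu-miR-23a-3p: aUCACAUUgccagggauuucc
mmu-miR-27a-3p: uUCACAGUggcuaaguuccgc
mmu-miR-24-3p: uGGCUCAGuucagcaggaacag
The precursor gene Mir27a had 0 counts in each of the 6 Mirc11-/- libraries, against 2, 3, 3, 1, 0 and 4 counts in the wild-type ones. Mir23a had 0 counts in all 12 libraries and Mir24-2 had 1 count, in a wild-type library, so these polyadenylated RNA libraries checked the deletion through Mir27a alone.

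Depth was similar in both Mirc11-/- groups, from 15139281 to 18528612 counts in unstimulated and from 16275766 to 18181126 in stimulated libraries. Breadth was not: 22510 to 23657 genes had a count in unstimulated libraries and 31320 to 34972 in stimulated ones. Vomeronasal receptor genes, which blood cells are not expected to express, summed to 14.6 to 17 CPM (counts scaled to the size of the library) unstimulated and 49.1 to 85.4 CPM stimulated, without overlap. Reads at the density of silent olfactory and vomeronasal receptor genes would make up 0.105% to 0.139% and 0.512% to 1.02% of the counts. Stimulated replicate 1 had the highest of these values and stood apart on the second principal component (11% of variance); the first (71.1%) separated stimulated from unstimulated libraries. No replicate pair agreed within sampling noise. CPM below are scaled by TMM library factors, are given in the order of replicates 1 to 3, and compare libraries, not genes of different length.

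**Figure D1:**
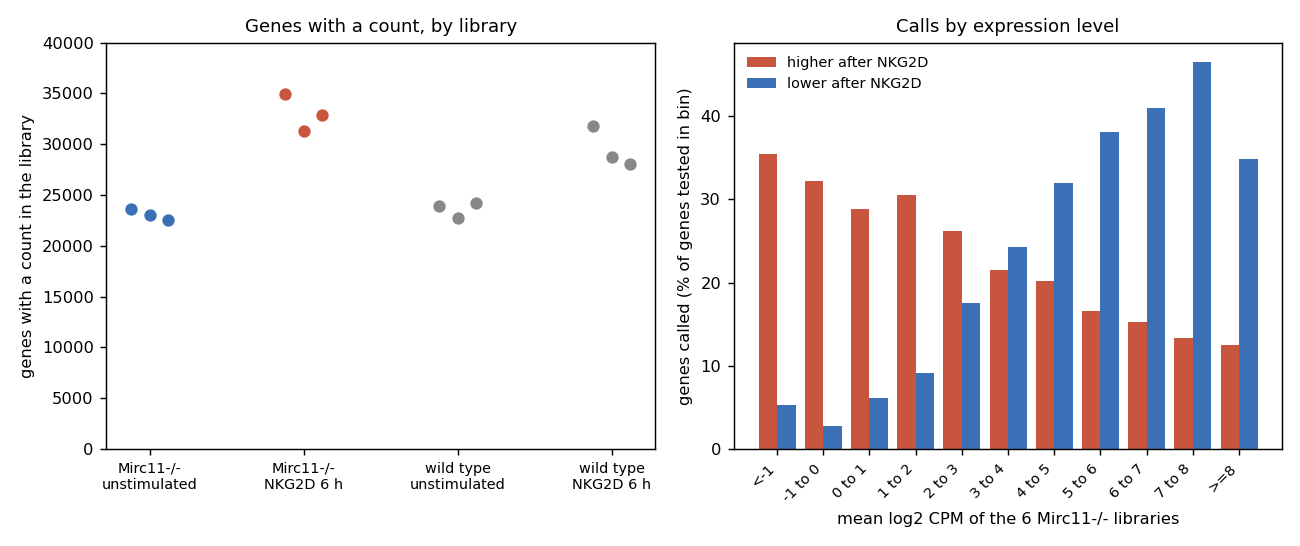
Left, genes with at least 1 count in each of the 12 libraries, by group; each point is a library. The 3 stimulated Mirc11-/- libraries (31320 to 34972 genes) lie above the 3 unstimulated ones (22510 to 23657). Right, the share of tested genes called higher (red) or lower (blue) in stimulated Mirc11-/- cells, in bins of mean log2 CPM: calls of higher genes go from 35.4% in the lowest bin to 12.5% in the highest, and calls of lower genes reach 46.5% between 7 and 8.

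Of 17457 genes tested with edgeR, 7958 (45.6%) differed between stimulated and unstimulated Mirc11-/- cells at a Benjamini-Hochberg adjusted p below 0.05. The stimulated cells had 4106 genes higher (23.5%) and 3852 lower (22.1%), and these shares are the background against which each gene group is read. The direction of the calls differed by level. Among the 11057 genes whose log2 CPM averaged 2 or more, 19.4% were higher and 31.5% lower. Of the 6400 below that level, 30.7% were higher and 5.69% lower. The filter keeps a low gene that is high enough in the stimulated group alone, and more genes had a count in stimulated libraries. Its part in the excess of rises at low level was not tested. Against a change of 1.5-fold, 1665 genes (9.54%) were higher and 863 (4.94%) lower. The median log2 change over all tested genes was 0.03.

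Vomeronasal reads moved with the treatment in all 6 libraries, and their part in the calls was not tested. With their level as a covariate, 297 genes were called higher and 263 lower. Of the calls of the first fit, 459 were made again in the same direction and 8 in the opposite one. The covariate rose with the treatment, so this fit cannot fully tell them apart. A call lost with it therefore does not show that the change was absent. Among genes below that lost their call, Csf2 had log2 values of 2.18 without and 2.16 with the covariate, and Rab27a -0.92 and -0.10. When a background per kilobase of exon was instead subtracted from each library's counts, 3608 genes were higher and 3466 lower. Without stimulated replicate 1 the counts were 3666 and 3761. For the groups below, the text gives covariate counts or says which of the named genes kept their call.

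**Figure D2:**
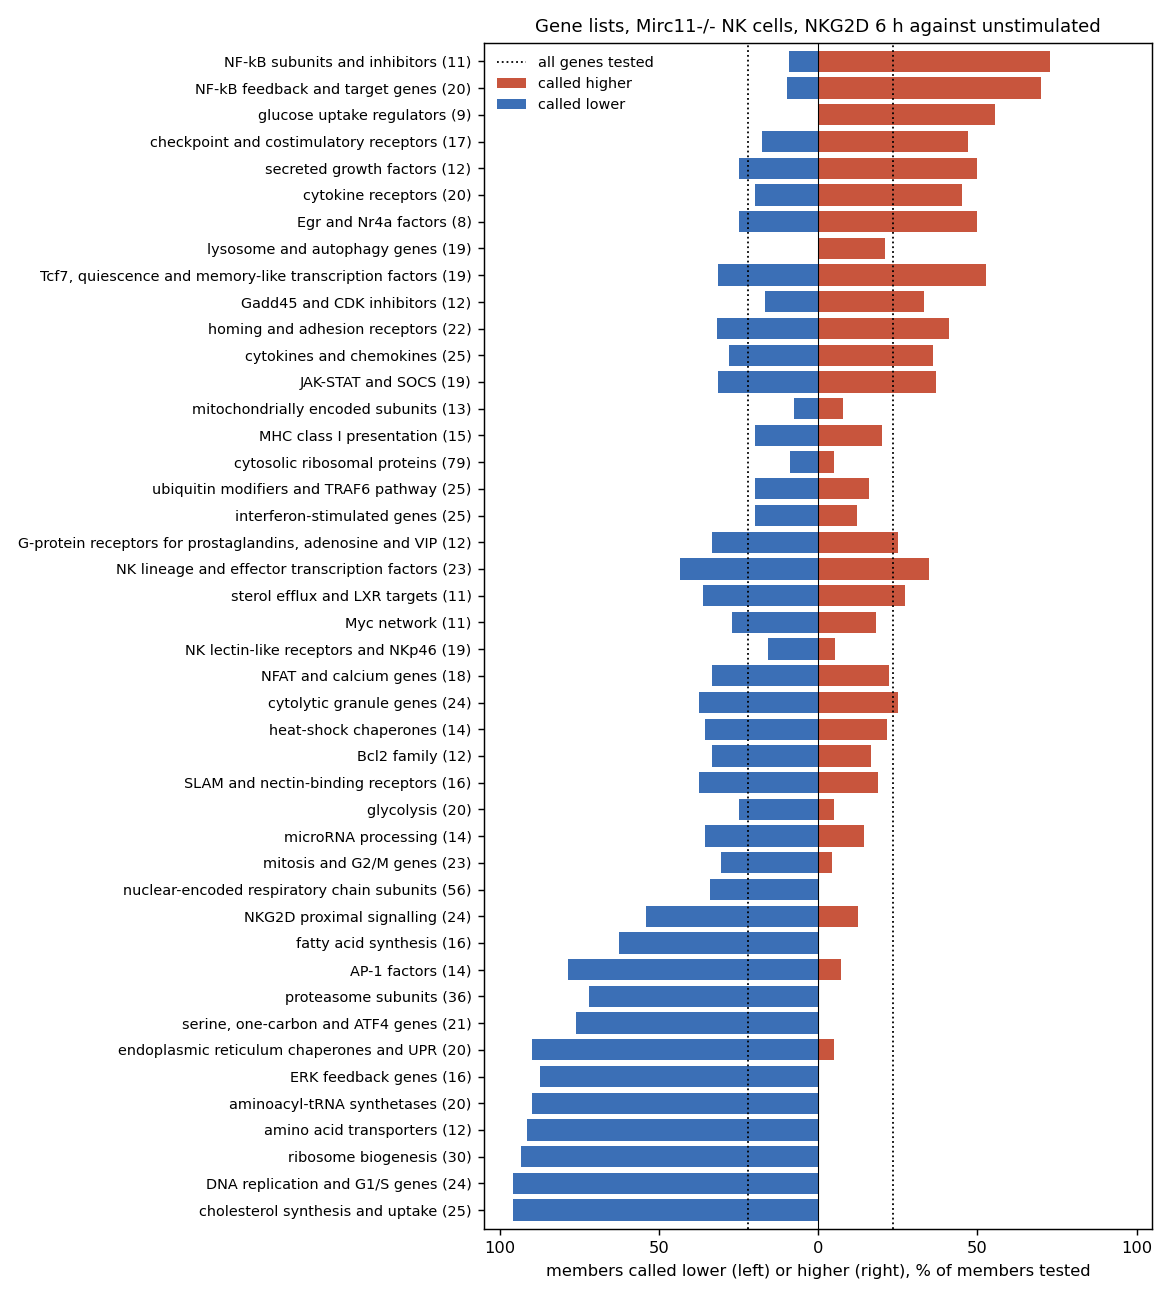
Share of the tested members of each gene list that were called higher (red, right) or lower (blue, left) in stimulated Mirc11-/- cells by edgeR, with the number of tested members in brackets; dotted lines mark the shares over all tested genes, 23.5% higher and 22.1% lower. NF-kB lists lie at the top, with 70% to 72.7% of members higher, and cholesterol synthesis and DNA replication at the bottom, with 96% and 95.8% lower.

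The largest named rises without a near-identical copy were a chemokine, an adhesion receptor and regulators of transcription and glucose handling. Ccl1, a chemokine made by activated lymphocytes, measured 2.04, 4.41 and 3.10 CPM in unstimulated and 101, 122 and 104 CPM in stimulated cells. Every stimulated library was thus far above every unstimulated one, a log2 rise of 5.11 ± 0.25 (SE; edgeR adjusted p = 6.65e-08). Crtam, a nectin-binding adhesion receptor of activated cytotoxic cells, went from 9.37 ± 1.93 to 136 ± 19.8 CPM (SD, n = 3). Slc2a6, a sugar transporter of intracellular membranes, and Bend4, a BEN-domain protein, rose 13.2-fold and 13-fold by the fit. Tbc1d4, a brake on glucose transporter traffic, rose 10.4-fold, Gadd45b, a stress-induced signalling protein, 9.8-fold, and Lama3, a laminin chain, 8.55-fold.

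Among genes without a near-identical copy, the deepest named falls were led by a Myc family factor and a set of secreted and receptor genes. Mycn measured 26.1, 24.3 and 24.1 CPM before and 2.78, 2.21 and 1.40 CPM after stimulation, a log2 change of -3.54 ± 0.20 (edgeR adjusted p = 6.4e-08). Next came Hbegf, an EGF receptor ligand (log2 -3.38), Ptger3, a prostaglandin E2 receptor (-3.31), and Tnfrsf11b, the decoy receptor osteoprotegerin (-3.28). Egr1, an immediate-early zinc-finger factor, fell from 168 ± 22.8 to 19.4 ± 3.66 CPM. Tmem119 (log2 -2.70) and Mfsd2a, a lysophospholipid carrier (-2.46), were also among the 15. Of all these rises and falls, those of Ccl1, Crtam, Slc2a6, Bend4, Tbc1d4, Gadd45b, Mycn, Ptger3 and Egr1 kept their call with the vomeronasal covariate.

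**Figure D3:**
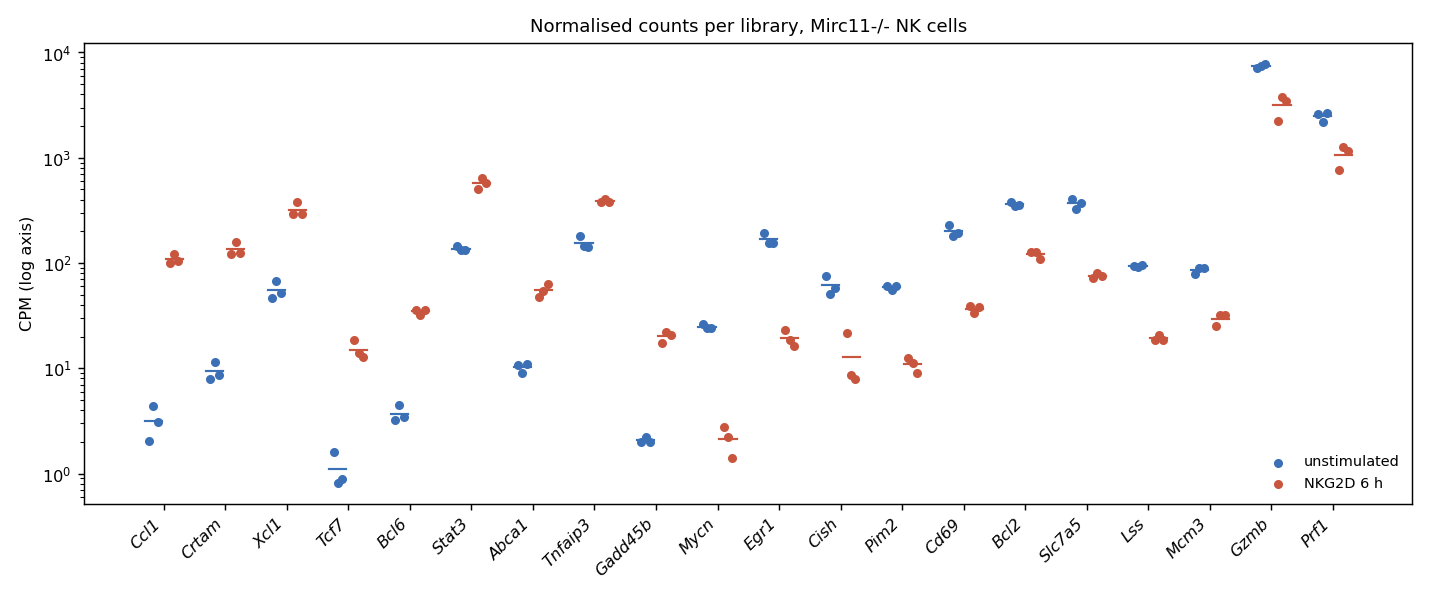
CPM of 20 genes in each of the 3 unstimulated (blue) and 3 stimulated (red) Mirc11-/- libraries on a log axis; points are libraries and short lines the group means. The 2 groups do not overlap for any of the 20 genes, from Ccl1 (3.19 to 109 CPM) to Prf1 (2492 to 1063 CPM).

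Among secreted mediators the response was split by gene. Of 25 cytokines and chemokines tested, 9 rose and 7 fell, with a median log2 change of 0.50. Xcl1, which attracts cross-presenting dendritic cells, measured 46.4, 67.5 and 52.4 CPM unstimulated and 291, 378 and 295 CPM stimulated, a fitted 5.8-fold rise. Csf2, which encodes GM-CSF, rose from 3.06 ± 0.267 to 13.9 ± 3.40 CPM (log2 2.18 ± 0.26, edgeR adjusted p = 3.67e-05). Ccl9, a CCR1 ligand, rose by 2.19 log2 and Ccl5, a chemokine of cytotoxic lymphocytes, by 0.50 (edgeR adjusted p = 0.000304 and 0.00438).

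Classic inflammatory products of NK cells had small or uncertain differences. Ifng, the interferon that activates macrophages, measured 44.4, 47.5 and 46.1 CPM before and 44.7, 71.3 and 62.0 CPM after, a log2 difference of 0.37 ± 0.17 that did not pass (edgeR adjusted p = 0.0887). Stimulated replicate 1 was inside the unstimulated range and the other stimulated libraries above it. Ccl4, an inflammatory chemokine, had a log2 difference of 0.51 ± 0.24 that did not pass either (adjusted p = 0.102). Its relative Ccl3 rose by 0.57 ± 0.21 log2 (edgeR adjusted p = 0.0439). The Ccl3 groups overlapped, and its call was lost without any 1 of the unstimulated replicates, without stimulated replicate 2 or 3, without unstimulated wild-type replicate 1 or 3 or stimulated wild-type replicate 2, with no filter on low counts, and with the covariate. With the covariate both Ifng and Ccl4 passed, at log2 1.69 and 2.15 (edgeR adjusted p = 0.00618 and 0.025). Ifng also passed with background subtracted (log2 0.43, edgeR adjusted p = 0.045). Both passed with a stricter filter on low counts and without stimulated replicate 1, and Ccl4 with a block for replicate number as well. Tnf, a pro-inflammatory cytokine, fell by 0.49 log2 (17.8 to 20.3 against 11.9 to 15 CPM, edgeR adjusted p = 0.0155), a call lost without stimulated replicate 2. Osm, an IL-6 family cytokine, fell from 36.5 ± 5.05 to 5.32 ± 1.45 CPM, and Lif of the same family by 2.35 log2. With the covariate 7 genes of this list were called higher and 1 lower. Osm, Lif, Tnf and Csf2 were not called (edgeR adjusted p = 0.194, 0.319, 0.843 and 0.146). Their log2 values there were -1.34, -2.90, -0.19 and 2.16. Of 12 growth factor genes, 6 rose, among them Fstl1, a follistatin-like glycoprotein (log2 2.90), and 3 fell, Hbegf among them. In the covariate fit 1 growth factor gene was called higher and 0 lower. Fstl1 and Hbegf were not called there, at log2 0.74 and -2.42 (edgeR adjusted p = 0.303 and 0.186).

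Several abundant cytolytic genes fell. Gzmb, the main granzyme of these cells, measured 7096, 7418 and 7838 CPM in unstimulated and 2248, 3777 and 3453 CPM in stimulated libraries. Prf1, the pore-forming perforin, measured 2590, 2199 and 2686 against 770, 1253 and 1166 CPM. Neither gene's groups overlapped, and stimulated replicate 1 was the lowest in both. The log2 changes were -1.24 ± 0.18 and -1.23 ± 0.17 (edgeR adjusted p = 0.000108 and 9.57e-05). Gzma, a second major granzyme, fell by 0.89 log2, Nkg7, a granule membrane protein, by 1.28, and Rab27a, a GTPase of granule exocytosis, by 0.92. Of 24 cytolytic genes 9 (37.5%) fell and 6 (25%) rose, against 22.1% and 23.5% of all tested genes. Among genes whose log2 CPM averaged 2 or more, the shares were 31.5% and 19.4%. Gzmk, a minor granzyme (1.84 ± 0.479 to 4.77 ± 1.38 CPM), had one of the rises. With the covariate the balance of the list turned, to 3 genes higher and 1 lower, and to 10 higher and 2 lower at an unadjusted p below 0.05. None of the genes named in this paragraph kept its call with the covariate; Gzmb and Prf1 then had log2 values of 0.00 and 0.09 (edgeR adjusted p = 0.998 and 0.899).

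The transcript of the receptor itself did not pass the test. Klrk1 measured 112, 142 and 128 CPM unstimulated and 125, 150 and 146 CPM stimulated, overlapping groups with a log2 difference of 0.14 ± 0.12 (edgeR adjusted p = 0.328). Hcst, its adaptor, differed by -0.21 ± 0.17 (adjusted p = 0.344), with a positive value under the covariate. Of 24 proximal signalling genes, 13 (54.2%) fell and 3 rose. Pik3cd, the lymphocyte p110 delta kinase subunit, fell from 402 ± 32.0 to 206 ± 7.84 CPM, and the adaptor Lat, the Src family kinase Lck and the exchange factor Vav3 fell by 0.88, 0.80 and 0.74 log2. Plcg1, a phospholipase, was among the 3 rises at 1.81 ± 0.986 to 3.33 ± 0.736 CPM, overlapping groups, a call lost with background subtracted and on leaving out unstimulated replicate 2 or 3, stimulated replicate 1 or 3, unstimulated wild-type replicate 3 or any stimulated wild-type replicate. With the covariate no member passed the edgeR test, and 6 higher and 4 lower had an unadjusted p below 0.05.

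Most lectin-like receptors were not called. Of 19 such receptors and NKp46 together, 15 did not pass and 3 fell, Klrb1c (NK1.1) from 303 ± 15.2 to 95.0 ± 15.6 CPM, Ncr1 (NKp46) from 150 ± 11.8 to 54.4 ± 8.19 CPM and Klra1 (Ly49A) by 0.47 log2. Klrb1b, an inhibitory relative of NK1.1, rose from 91.0 ± 6.01 to 234 ± 40 CPM. Without stimulated replicate 1, 5 members of this list were higher in place of 1. Cd244 (2B4), a SLAM family receptor, fell by 1.27 log2, Cd226 (DNAM-1), a nectin-like receptor, by 0.82, and Fcer1g, an ITAM adaptor, by 0.79. Slamf6 rose at a low level, 0.358 ± 0.197 to 1.38 ± 0.313 CPM. Its call was lost with background subtracted (adjusted p = 0.077). Among 16 SLAM and nectin-binding genes 6 fell and 3 rose. With the covariate, Klrb1b and Crtam kept their calls and Klrb1c, Ncr1, Cd244, Cd226, Fcer1g and Slamf6 did not (adjusted p 0.0623 to 0.962).

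NF-kB genes rose together. Of 11 subunits and inhibitors 8 (72.7%) rose and 1 fell, and of 20 feedback and target genes 14 (70%) rose and 2 fell, with median log2 changes of 0.67 and 0.71 against 0.03 over all genes. Relb, the partner of p52 in the noncanonical pathway, measured 21.2, 17.7 and 17.9 CPM unstimulated and 45.8, 49.8 and 47.4 CPM stimulated. Nfkb2, the p52 precursor, went from 63.0 ± 6.70 to 134 ± 8.67 CPM, and the inhibitors Nfkbie and Nfkbid rose by 1.26 and 0.88 log2. Nfkbia, which encodes I-kappa-B-alpha, rose by 0.67 log2 (29.0 ± 2.93 to 46.2 ± 4.12 CPM). Nfkbiz, an atypical nuclear I-kappa-B, was the subunit-list gene that fell (51.5 ± 6.05 to 23 ± 2.2 CPM). Traf1, a signalling adaptor and NF-kB target, measured 88.5, 78.8 and 85.4 against 216, 216 and 212 CPM, and Tnip3, a partner of A20, rose from 1.80 ± 0.115 to 8.44 ± 1.59 CPM. With the covariate 6 and 8 members of the lists were still called higher, including Relb, Nfkb2, Nfkbie, Nfkbid, Nfkbia, Traf1, Tnfaip3 and Tnip3.

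The ubiquitin modifiers named in the study's title were less uniform. Tnfaip3, the deubiquitinase A20 that restrains NF-kB, measured 181, 146 and 141 CPM before and 380, 403 and 383 CPM after, a log2 rise of 1.32 ± 0.11 (edgeR adjusted p = 8.83e-07). Traf6, the ubiquitin ligase of the pathway, stayed at 63.3 ± 0.432 and 58.4 ± 3.27 CPM (log2 -0.12 ± 0.07, adjusted p = 0.185). Of 25 genes of the list, 4 (16%) rose and 5 (20%) fell, near the background shares. Tab1, which activates the kinase TAK1, Peli1, a ubiquitin ligase, and Irak2, a kinase of the Toll-like pathway, rose by 0.78, 0.74 and 0.44 log2. The ligase Cbl and the kinase Chuk (IKK alpha) fell by 0.53 and 0.36 log2, with 3 genes of the list lower without stimulated replicate 1 and 2 with background subtracted. Tnfaip3, which is counted with the NF-kB targets, Tab1 and Cbl kept their calls with the covariate.

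Promoter stretches of NF-kB genes are shown because these genes moved together. Windows of 250 bases before the start (RefSeq, GRCm38.p6, gene strand) were searched on both strands for a 10-letter form of the kappa-B motif. Of the NF-kB genes with a window it was found in 3 of 8 subunits and inhibitors (Nfkb2, Rel and Nfkbia) and 3 of 19 targets (Tnfaip3, Traf3 and Cyld), against 1.41% of all 32851 windows. A gene counted if any of its windows matched, while the percentage is of single windows, from 27025 genes, so these are unlike measures. The motif is in capitals, and in Tnfaip3 and Nfkbia it reads on the opposite strand. The stretches lie at chr19:46304686-46304736 on the plus strand for Nfkb2, and on the minus strand at chr10:19015411-19015462 for Tnfaip3 and chr12:55492648-55492716 for Nfkbia.
Nfkb2: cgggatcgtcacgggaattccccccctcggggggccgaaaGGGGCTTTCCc
Tnfaip3: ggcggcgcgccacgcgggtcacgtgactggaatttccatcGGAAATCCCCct
Nfkbia: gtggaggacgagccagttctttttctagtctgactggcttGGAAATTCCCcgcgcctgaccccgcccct
All 3 genes shown rose, by 1.09, 1.32 and 0.67 log2. Of the other matches Traf3 was not called (log2 0.13, edgeR adjusted p = 0.331), while Rel and Cyld were higher. A match describes these letters and does not show binding.

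AP-1 and ERK genes went the opposite way at 6 h. Of 14 AP-1 factors 11 (78.6%) fell and 1 rose, with a median log2 change of -1.13. Jun measured 66.9, 54.1 and 65.1 CPM unstimulated and 30.1, 29.9 and 26.1 CPM stimulated (log2 -1.11 ± 0.11). Fos, its main partner, fell from 10.8 ± 3.47 to 2.56 ± 1.02 CPM, and Fosb, Fosl1 and Maff fell by 2.68, 2.29 and 1.93 log2. Of 16 ERK feedback genes 14 (87.5%) fell, with a median of -1.39. Spry4, an inhibitor of ERK signalling, measured 44.4, 41.2 and 42.9 against 9.62, 8.91 and 8.59 CPM, with a log2 change of -2.24 ± 0.10 (edgeR adjusted p = 6.9e-09). Etv5, an ERK-induced ETS factor, fell by 2.37 log2, the ERK phosphatase Dusp6 by 1.95, Spred2, a Sprouty relative, by 1.79, and the phosphatase Dusp1 by 1.71. With the covariate 4 ERK feedback genes were called lower, Etv5, Spry4, Dusp6 and Spred2, and Fos, Fosb, Fosl1, Maff, Jun and Dusp1 were not called (adjusted p 0.0733 to 0.431).

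The Egr and Nr4a families divided. Egr1 measured 194, 156 and 153 CPM before and 23.4, 18.5 and 16.2 CPM after, while Egr2, a relative that limits lymphocyte activation, rose from 14.4 ± 0.621 to 39.5 ± 5.29 CPM. The orphan nuclear receptor Nr4a1 rose from 11.4 ± 1.54 to 32.7 ± 4.02 CPM, and Nr4a3 and Nr4a2 rose by 0.79 and 0.57 log2. Of the 8 genes of this list tested, which also holds the Egr corepressors Nab1 and Nab2, 4 rose and 2 fell; the second fall was Nab1, named after its value was seen (log2 -0.44). Egr1, Egr2 and Nr4a1 kept their calls with the covariate, and Nr4a3 and Nr4a2 did not (adjusted p 0.2 and 0.0872).

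Calcium genes showed store-operated entry components rising and a pump and a factor falling. Orai1, the plasma membrane calcium channel, rose from 5.60 ± 0.494 to 14 ± 2.45 CPM, and Stim2, its endoplasmic reticulum sensor, from 20 ± 0.880 to 38.7 ± 0.488 CPM. Orai2 rose by 0.51 log2. The transcription factor Nfatc2 measured 73.3, 60.1 and 61.3 CPM against 30.1, 12.8 and 16.5 CPM, with stimulated replicate 1 nearest the unstimulated libraries. Atp2a3, the SERCA3 pump, fell by 1.21 log2. Over the 18 NFAT and calcium genes 4 rose and 6 fell, and Orai1 and Atp2a3 kept their calls with the covariate.

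Inhibitors and Pim kinases of the JAK-STAT list were lower, and STAT and JAK genes higher. Pim2, a survival kinase, measured 60.3, 56.0 and 61.1 CPM unstimulated and 12.6, 11.1 and 9.10 CPM stimulated (log2 -2.43 ± 0.12, edgeR adjusted p = 2.37e-08). Cish, a cytokine-inducible SH2 inhibitor, measured 74.9, 51.2 and 57.7 against 21.5, 8.68 and 7.92 CPM. The groups did not overlap, though stimulated replicate 1 was more than double the other stimulated libraries. Socs2 and Socs1, further inhibitors of cytokine signalling, fell by 2.21 and 2.03 log2. Stat3, which transmits IL-6, IL-10 and IL-21 signals, rose from 137 ± 6.27 to 571 ± 67.5 CPM. Over the 19 JAK-STAT and SOCS genes tested 7 rose and 6 fell. Pim2, Socs2 and Stat3 kept their calls with the covariate and Cish and Socs1 did not (adjusted p 0.173 and 0.833).

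Receptors for cytokines changed gene by gene, 9 of 20 higher (45%) and 4 lower. Il12rb1, the shared chain of the IL-12 and IL-23 receptors, fell from 162 ± 15.8 to 47.7 ± 3.67 CPM. Il10ra, the IL-10 receptor chain, rose from 47.7 ± 4.10 to 102 ± 12.3 CPM, and Ifnar1, a type I interferon receptor chain, from 96.9 ± 2.82 to 158 ± 8.69 CPM. Csf2rb, the signalling chain of the GM-CSF receptor, rose at a low level (2.46 ± 1.18 to 6.25 ± 2.06 CPM). Il2rb, the IL-2 receptor beta chain, measured 1680 ± 60.3 and 1537 ± 251 CPM (log2 -0.13 ± 0.12, adjusted p = 0.414). Il12rb1 and Ifnar1 kept their calls with the covariate; Il10ra and Csf2rb did not (adjusted p 0.113 and 0.418).

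Cd69, usually an early activation marker, was lower at 6 h. It measured 227, 182 and 194 CPM unstimulated and 39.5, 33.4 and 37.8 CPM stimulated (log2 -2.44 ± 0.13, edgeR adjusted p = 4.49e-08). Entpd1 (CD39), an enzyme that degrades extracellular ATP, fell from 129 ± 4.84 to 40.9 ± 5.56 CPM. Ctla4, an inhibitory receptor of the CD28 family, rose from 10.9 ± 1.80 to 41.4 ± 15.1 CPM, and Pdcd1 (PD-1) from 0.336 ± 0.101 to 1.72 ± 0.245 CPM. Cd27, a costimulatory receptor of the TNF receptor family, rose by 1.43 log2. Of 17 checkpoint and costimulatory receptors 8 (47.1%) rose and 3 fell. Cd69, Entpd1 and Cd27 kept their calls with the covariate, and Ctla4 and Pdcd1 did not (adjusted p 0.156 and 0.0869).

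Homing receptors rose from very low to low levels, and an integrin chain rose at a higher one. Cxcr4, the CXCL12 receptor, measured 0.166, 0.315 and 0.0586 CPM before and 3.54, 6.12 and 3.65 CPM after. Ccr7, the lymph node homing receptor, rose from 0.408 ± 0.0818 to 2.56 ± 0.222 CPM. Itga4, the alpha chain of VLA-4, went from 82.1, 91.4 and 82.9 CPM to 223, 209 and 222 CPM (log2 1.35 ± 0.08, edgeR adjusted p = 6.56e-08). Itga2 (CD49b), the integrin chain used to mark mouse NK cells, fell by 1.52 log2. Of the 22 genes of this list 9 (40.9%) rose and 7 fell; Itga4 kept its call with the covariate, while Cxcr4, Ccr7 and Itga2 did not (adjusted p 0.122, 0.0752 and 0.134).

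Receptors for small mediators changed in both directions. Ptger3 measured 11.6, 14.9 and 11.2 against 1.56, 1.22 and 1.01 CPM, and Adora2b, a low-affinity adenosine receptor, 11.8 ± 1.3 against 1.88 ± 0.297 CPM. P2ry14, a UDP-glucose receptor, fell by 1.55 log2. Vipr2, a receptor for vasoactive intestinal peptide, rose from 1.09 ± 0.199 to 8.18 ± 1.80 CPM, and Gpr183 (EBI2), an oxysterol receptor that guides cells in lymphoid tissue, from 6.99 ± 0.754 to 27.8 ± 3.14 CPM. Of 12 tested, 3 rose and 4 fell, and Ptger3, P2ry14 and Gpr183 kept their calls with the covariate.

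Several factors linked to quiescent or memory-like lymphocytes rose. Tcf7, the factor TCF-1, measured 1.60, 0.820 and 0.878 CPM unstimulated and 18.7, 13.9 and 12.7 CPM stimulated, a fitted 13.5-fold rise (log2 3.75 ± 0.31, edgeR adjusted p = 1.19e-06). Bcl6, a transcriptional repressor, measured 3.20, 4.48 and 3.46 against 36.2, 32.3 and 35.8 CPM. Zbtb16 (PLZF), a factor of innate-like lymphocytes, rose 2.65-fold, Klf2, a quiescence factor, fell from 1.48 ± 0.230 to 0.441 ± 0.275 CPM, and Id3, an E-protein inhibitor, fell by 1.39 log2. In the list of 19 such genes 10 (52.6%) rose and 6 fell. Among 23 lineage and effector factors 8 rose and 10 fell. Bach2, a repressor of effector programmes, rose from 12 ± 1.56 to 40.6 ± 7.74 CPM. Ikzf2 (Helios) rose 5.27-fold, Rora, a nuclear receptor, 3.58-fold and Irf4, an activation-induced factor, 3.07-fold. Eomes, a T-box factor of NK cells, and Hopx, a homeodomain protein, fell by 0.91 and 1.38 log2. Bcl6 and Irf4 kept their calls with the covariate. Tcf7 had a log2 value of 2.71 there (adjusted p = 0.054), and Bach2, Ikzf2, Rora, Zbtb16, Klf2, Eomes, Hopx and Id3 were not called either.

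Some Myc network and survival genes changed, in shares near those of all genes. Myc, the growth-promoting factor, measured 70.8, 65.5 and 73.1 CPM before and 22.9, 20.6 and 21.6 CPM after. Its antagonists Mxd4 and Mxi1 rose from 66.6 ± 1.54 to 177 ± 17.3 CPM and from 2.66 ± 0.637 to 10.6 ± 3.10 CPM, and they were the list's 2 rises. Bcl2, an inhibitor of apoptosis, measured 376, 348 and 357 against 128, 126 and 110 CPM (log2 -1.57 ± 0.09), and Bcl2l1 (Bcl-xL) fell by 1.3 log2. The pro-apoptotic Bcl2l11 (Bim) and Bmf rose by 1.14 and 1.54 log2, while Bid, also pro-apoptotic, fell by 0.71. Of 12 Bcl2 family genes 2 rose and 4 fell, and of 11 Myc network genes 2 rose and 3 fell. With the covariate Bcl2, Mycn and Mxd4 kept their calls and Bcl2l11, Bcl2l1, Bmf, Bid, Myc and Mxi1 did not (adjusted p 0.0526 to 0.853).

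DNA replication genes were lower almost throughout. Of 24 replication and G1/S genes 23 (95.8%) fell and 1 did not pass, with a median log2 change of -0.99. Mcm3, a subunit of the replicative helicase, measured 78.4, 90.6 and 89.5 CPM unstimulated and 25.3, 31.8 and 32.1 CPM stimulated. Cdc6, which loads the helicase, Mcm2 and Mcm4, further subunits, and Rrm2, of ribonucleotide reductase, fell by 1.85, 1.52, 1.27 and 1.31 log2. The CDK inhibitor Cdkn1b (p27) rose from 35.5 ± 1.23 to 82.4 ± 10.3 CPM, and Ccng2, an atypical cyclin of arrested cells, from 29.2 ± 1.91 to 68.5 ± 20 CPM. With the covariate 4 replication genes were called lower, including Cdc6, Mcm3 and Mcm4, and Cdkn1b and Gadd45b stayed higher.

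Mitotic genes changed less. Of 23 tested, 7 fell and 1, the centromeric histone Cenpa, rose (78.5 ± 7.36 to 159 ± 15.7 CPM). Ccna2 (cyclin A2), Cdk1 and Aurkb, a mitotic kinase, fell by 0.73, 0.71 and 0.64 log2 (edgeR adjusted p = 0.0167, 0.016 and 0.0113). The calls for Ccna2 and Cdk1 were lost without unstimulated replicate 2, and that for Ccna2 also without stimulated replicate 1, when 3 genes of the list were lower in place of 7. No member passed with the covariate in edgeR, and 1 had an unadjusted p below 0.05.

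Stretches of helicase promoters are shown for the replication group, which fell together. TTTGGCGC, a form of the E2F motif, was searched for on either strand in the 250 bases before the start. Counted as for the NF-kB genes, it was found in 3 of 18 replication genes with a window (Mcm5, Mcm6 and Pola1), against 0.417% of all single windows. In Mcm5 (chr8:75109320-75109407, plus strand) it reads on the opposite strand, and in Mcm6 (chr1:128359706-128359855, minus strand) it occurs at 2 places on the gene strand, all in capitals.
Mcm5: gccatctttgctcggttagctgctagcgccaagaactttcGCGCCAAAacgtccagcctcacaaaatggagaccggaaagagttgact
Mcm6: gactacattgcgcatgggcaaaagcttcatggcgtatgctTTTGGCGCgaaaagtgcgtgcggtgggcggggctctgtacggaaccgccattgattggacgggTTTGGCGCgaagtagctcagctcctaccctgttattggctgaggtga
Mcm5 fell from 102 ± 13.0 to 46.8 ± 11.7 CPM and Mcm6 from 170 ± 22.1 to 80.0 ± 10.9 CPM (log2 -1.12 and -1.09). Neither was called with the covariate (adjusted p 0.51 and 0.158).

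Sterol genes were lower almost throughout, like the replication genes. Of 25 genes of cholesterol synthesis and uptake 24 (96%) fell and 1 did not pass, with a median log2 change of -1.38. Lss, lanosterol synthase, measured 93.7, 92.6 and 95.6 CPM before and 18.5, 20.9 and 18.6 CPM after, a log2 change of -2.28 ± 0.09 (edgeR adjusted p = 4.4e-09). Acat2, a thiolase that feeds the pathway, Hsd17b7, a sterol reductase, Insig1, a sterol sensor of the endoplasmic reticulum, and Lrp8, a lipoprotein receptor, fell by 2.48, 2.18, 1.88 and 2.51 log2; Lrp8 is in no list and was named for the size of its fall. Abca1, the main cholesterol exporter, rose from 10.7, 9.08 and 11 CPM to 47.5, 54.1 and 63.8 CPM. Abcg1, a second exporter, rose by 0.94 log2, and Soat1, which esterifies cholesterol, fell by 0.60, within a sterol efflux list of 11 genes with 3 higher and 4 lower. With the covariate 7 genes of synthesis and uptake were called lower, including Lss, Acat2 and Hsd17b7. Lrp8 also stayed lower and Abca1 higher.

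Fatty acid synthesis followed, with 10 of 16 genes (62.5%) lower. Fasn, fatty acid synthase, fell from 391 ± 7.24 to 122 ± 13.1 CPM, and Scd2, a stearoyl desaturase, from 1150 ± 76.3 to 447 ± 112 CPM. Fads2, another desaturase, and Elovl6, an elongase, fell by 2.07 and 1.09 log2. Fasn and Elovl6 kept their calls with the covariate, and Scd2 and Fads2 did not (adjusted p 0.554 and 0.455).

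Several regulators of glucose uptake rose. Of 9 regulators of glucose uptake 5 (55.6%) rose and the other 4 did not pass. Slc2a6 measured 1.60, 1.45 and 1.87 CPM before and 17.8, 27.0 and 20.6 CPM after, and Tbc1d4 0.828, 0.883 and 0.996 against 10.4, 9.38 and 8.48 CPM. Txnip and Arrdc4, arrestins that restrain glucose uptake, rose by 0.68 and 1.56 log2. Among 20 glycolytic genes 5 (25%) fell, near the 22.1% of all genes, and 1 rose, Pfkfb3, which makes the activator of phosphofructokinase (10.1 ± 0.708 to 35.8 ± 0.564 CPM). Hk2, a hexokinase, measured 92.0, 81.8 and 89.3 against 22.7, 50.3 and 26.3 CPM, with stimulated replicate 2 the highest after stimulation. The lactate carrier Slc16a1 and the phosphofructokinase Pfkp fell by 1.07 and 0.83 log2. Slc2a6, Tbc1d4, Arrdc4 and Pfkfb3 kept their calls with the covariate, and Hk2 and Pfkp had values of the opposite sign there that did not pass (log2 0.34 and 0.50). In that fit 8 glycolytic genes had higher values at an unadjusted p below 0.05, and Pfkfb3 alone was called.

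Genes that supply and charge amino acids fell together. Of 12 amino acid transporters 11 (91.7%) fell and 1 did not pass. Slc7a5, the LAT1 transporter of large neutral amino acids, measured 409, 325 and 374 CPM before and 71.8, 80.8 and 75.3 CPM after (log2 -2.28 ± 0.14, edgeR adjusted p = 9.56e-08). Slc7a1, Slc1a4 and Slc38a2, carriers of cationic and small neutral amino acids, fell by 1.27, 1.3 and 1.0 log2. Of 21 genes of serine and one-carbon metabolism and the ATF4 programme 16 (76.2%) fell and 5 did not pass. Cth, which makes cysteine, fell by 2.71 log2, the ATF4 targets Chac1 and Trib3 by 2.10 and 1.92, and the folate enzymes Shmt1 and Mthfd1 by 1.56 and 1.36.

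Aminoacyl-tRNA synthetases, which charge tRNAs, were lower in 18 of 20 cases (90%), and the other 2 did not pass. Iars, the isoleucine enzyme, measured 224, 216 and 225 CPM unstimulated and 100, 106 and 103 CPM stimulated. Yars, Gars, Lars and Tars fell by 1.25, 1.16, 1.11 and 1.09 log2. With the covariate Slc7a5 and Slc38a2 kept their calls, whereas no ATF4-list gene or synthetase passed in edgeR; 3 and 2 genes of these lists were lower at an unadjusted p below 0.05, and 3 and 2 higher.

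Promoter stretches of this group are shown with TGATGCAA, the composite motif of ATF4 and C/EBP factors. It lay within the 250 bases before the start of 2 of 12 synthetase genes with a window (Aars and Tars) and 4 of 19 ATF4-list genes (Chac1, Vldlr, Nupr1 and Pycr1), against 0.791% of all windows. Matches were again counted by gene in the lists and by single window in the percentage. The stretches are at chr8:111033690-111033777 (Aars, plus), chr15:11399659-11399713 (Tars, minus) and chr2:119351009-119351096 (Chac1, plus), and in all 3 the motif, in capitals, reads on the opposite strand.
Aars: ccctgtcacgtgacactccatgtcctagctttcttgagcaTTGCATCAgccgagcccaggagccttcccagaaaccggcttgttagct
Tars: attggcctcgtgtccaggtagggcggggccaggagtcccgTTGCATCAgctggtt
Chac1: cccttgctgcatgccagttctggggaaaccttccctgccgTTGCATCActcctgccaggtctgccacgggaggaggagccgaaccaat
Aars fell from 323 ± 19.7 to 181 ± 21.1 CPM, Tars from 136 ± 6.59 to 64.1 ± 8.90 CPM and Chac1 from 25.8 ± 5.49 to 6.00 ± 1.09 CPM.

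Protein folding and ribosome assembly genes were lower as well. Of 20 endoplasmic reticulum chaperones and unfolded-protein genes 18 (90%) fell and 1 rose. Hspa5 (BiP), the main chaperone of this compartment, went from 1002 ± 37.8 to 480 ± 57.7 CPM and Hsp90b1 (GRP94) from 702 ± 56.9 to 337 ± 35.3 CPM. Herpud1, of the degradation pathway, and the chaperone cofactors Sdf2l1 and Creld2 fell by 1.16, 1.16 and 1.06 log2. Of 30 ribosome biogenesis genes 28 (93.3%) fell and 2 did not pass, with a median of -1.01. The nucleolar GTPase Gnl3 measured 54.0, 64.3 and 60.1 against 21.2, 19.8 and 20.2 CPM, and Rrs1, Nolc1, Nop58 and Rrp9, factors of ribosomal RNA processing, fell by 1.40, 1.32, 1.24 and 1.21 log2. With the covariate 2 ribosome biogenesis genes were called lower, Gnl3 among them, and no folding gene passed in edgeR (1 lower at an unadjusted p below 0.05).

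Proteasome genes fell by smaller amounts, and most respiratory chain and ribosomal protein genes did not pass. Of 36 proteasome subunits 26 (72.2%) fell, with a median log2 change of -0.39, among them the lid subunits Psmd12 and Psmd3 by 0.82 and 0.72. Without stimulated replicate 1, 19 fell. Among 56 nuclear-encoded respiratory chain subunits 19 (33.9%) fell, 12 without that library. This share is near the 31.5% lower among all genes whose log2 CPM averaged 2 or more. Cox5a, of cytochrome oxidase, and Cyc1, cytochrome c1, were lower by 0.81 and 0.56 log2. Of 79 cytosolic ribosomal protein genes 4 rose and 7 fell; 2 were lower without stimulated replicate 1 and 3 with background subtracted. With the covariate 63 ribosomal protein genes had a higher value at an unadjusted p below 0.05 and 2 passed after adjustment, so the direction in this group turned with the setting. The respiratory chain list turned as well, with 24 subunits higher at an unadjusted p below 0.05 and 1 called higher. Of the proteasome subunits 7 were then higher and 2 lower at an unadjusted p below 0.05, and 1 was called lower. Psmd12, Psmd3, Cox5a and Cyc1 were not called there. The lysosome and autophagy list had 4 of 19 genes higher (21.1%, against 23.5% of all). Among them were Ulk1, the autophagy kinase, Mcoln1, a lysosomal calcium channel, and Tfe3, a lysosome factor, at 0.91, 0.77 and 0.64 log2. No gene of this list was called with the covariate (edgeR adjusted p = 0.66, 0.323 and 0.157 for these genes).

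Interferon, antigen presentation and microRNA genes had fewer higher calls than all genes, 12% to 20% of members against 23.5%. Lower calls were 20%, 20% and 35.7% of these lists, against 22.1% of all genes. Of 25 interferon-stimulated genes 3 (12%) rose and 5 (20%) fell. Gbp2 and Gbp3, guanylate-binding GTPases, rose by 1.04 and 0.99 log2 and kept their calls with the covariate, and Zbp1, a nucleic acid sensor, fell by 0.97. Isg15, a ubiquitin-like protein, fell from 2.38 ± 0.796 to 1.13 ± 0.185 CPM, a call lost without unstimulated replicate 3 or stimulated replicate 1 or 2. Nlrc5, the activator of MHC class I genes, fell from 78.3 ± 13.0 to 28.8 ± 5.87 CPM, and Erap1, which trims peptides, by 0.61 log2. Their list of 15 had 3 higher and 3 lower (20% each), and none of its genes was called with the covariate. Zbp1, Isg15, Nlrc5 and Erap1 were not called there (edgeR adjusted p = 0.279, 0.692, 0.0786 and 0.647). Of 14 microRNA processing genes 2 (14.3%) rose, Ago4 (log2 1.35) and Tnrc6b (0.62), and 5 (35.7%) fell. These included Ago2, the slicing Argonaute, and the processing enzymes Dicer1 and Drosha, by 0.56, 0.50 and 0.45 log2. Drosha alone among these 5 microRNA genes kept its call with the covariate (adjusted p = 0.0398).

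Some large changes belonged to near-identical gene copies and are uncertain. A gene was so classed when over 50% of its 31-base words occur in transcripts of other genes. This held for 1394 tested genes, 348 of them higher and 202 lower, and for 6 of the 15 largest named rises and 2 of the 15 largest falls. The mitochondrial gene mt-Atp6 went from 50.1, 143 and 55.8 CPM to 1929, 1880 and 2135 CPM, while its nuclear copy Gm10925 went from 1927, 1411 and 1645 CPM to 0 in each stimulated library. The sum of the pair was 1978, 1554 and 1701 CPM before and 1929, 1880 and 2135 CPM after, overlapping ranges. The histone gene Hist1h2ap fell from 230 ± 43.7 to 4.10 ± 2.09 CPM as Hist1h2ao rose from 1.64 ± 1.82 to 102 ± 37.8 CPM. Unlike the first pair, the histone pair had a lower sum after stimulation without overlap, 182, 252 and 262 against 73.3, 150 and 94.6 CPM. Rps27 fell from 439 ± 21.0 to 109 ± 27.0 CPM as its copy Rps27rt rose from 0.552 ± 0.615 to 349 ± 87.4 CPM, and their sum was 419, 442 and 460 against 339, 519 and 517 CPM. Pgk1-rs7 and Eno1b had 0 counts in every unstimulated library and 64.5 to 143 and 118 to 249 CPM in the stimulated ones, with Eno1 at 1148 ± 142 and 608 ± 241 CPM. In wild-type libraries mt-Atp6 and Gm10925, Hist1h2ao and Hist1h2ap, and Pgk1-rs7 moved in the same directions. The calls for Eno1b and Rps27 were lost on leaving out any 1 of the 6 mutant libraries, and that for Eno1 without stimulated replicate 1. Pgk1-rs7 kept its call with the covariate, and mt-Atp6, Hist1h2ao, Hist1h2ap, Rps27, Rps27rt, Eno1 and Eno1b did not. Lower shares of shared words, 21.2% to 43.7%, hold for Acat2, Klrb1b, Etv5, Actb, Ifng and Klrb1c.

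Markers that define other cell types were mostly low in all 6 libraries. Of 12 NK markers 7 fell and 1, the factor Tbx21 (T-bet), rose by 0.33 log2 (a call lost without unstimulated replicate 3 or stimulated replicate 2), and their sum went from 12485 to 13518 CPM down to 4899 to 7548 CPM, most of it Gzmb and Prf1. All 6 tested B cell markers of 9 listed were higher (100%), 3 with background subtracted, with a sum of 65 to 74.4 against 107 to 116 CPM, nearly all of it Ighm. Pax5, the B lineage factor, was at 0.0552, 0 and 0 against 1.28, 1.11 and 0.618 CPM and Ms4a1 (CD20) at 1.82 ± 0.0553 against 3.88 ± 1.79 CPM, the latter a call lost without any 1 of the unstimulated replicates or stimulated replicate 1, while the defining Cd79a and Cd79b stayed at or under 0.522 CPM. Of 11 T cell markers 2 rose, Cd4 to 0.996 ± 0.204 and Cd6 to 4.37 ± 0.914 CPM, with sums of 362 to 454 and 325 to 372 CPM. Cd3d, Cd3e and Cd3g lay between 11.2 and 35.5 CPM in all 6 libraries. Cd14, a monocyte receptor, rose from 2.93 ± 0.969 to 5.75 ± 1.77 CPM, with Lyz2 and Adgre1 at or under 0.276 CPM. Of 6 dendritic cell markers 4 rose and 1 fell, with Zbtb46 from 8.38 ± 1.33 to 19.3 ± 2.56 CPM, and Clec9a and Flt3 at or under 0.406 CPM. Kit, the stem cell factor receptor, rose from 15.8 ± 5.14 to 83.0 ± 20.8 CPM, while the other tested mast cell and neutrophil genes did not pass. Hbb-bs and Hbb-bt were at 0 in all 6 libraries. Of these genes only Cd6 kept its call with the covariate, and without stimulated replicate 1 the B cell list had 4 genes higher and the dendritic list 2. Fewer cells of a type and less RNA per cell cannot be told apart in bulk libraries.

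By absolute amount the largest falls were in abundant genes. Actb, the cytoskeletal actin, went from 10810, 10412 and 11125 CPM to 4146, 5940 and 5959 CPM. Tmsb4x, which binds actin monomers, fell from 3043 ± 80.6 to 1617 ± 483 CPM, and Spp1, which encodes osteopontin, from 5931 ± 559 to 2866 ± 693 CPM. Stimulated replicate 1 was the lowest in all 3 genes. None of the 3 was called with the covariate, where the log2 values were -0.20, 0.31 and -0.15 (edgeR adjusted p = 0.762, 0.692 and 0.868).

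The mutant response was then set against that of wild-type cells, in which 16.1% of genes were higher and 15.7% lower after stimulation. Of the mutant calls 2214 were higher and 2248 lower in both genotypes, and 6 were called in opposite directions, 2 higher and 4 lower in the mutant. A further 1890 higher and 1600 lower mutant calls were not called in wild-type cells. In turn 596 higher and 495 lower wild-type calls were not made in the mutant. The difference between the responses passed for 2 genes of 17457 (0.0115%), Ifng and Ccl3, and 1857 genes had an unadjusted p below 0.05. In wild-type cells Ifng rose by 2.24 log2 and Ccl3 by 3.25. The mutant response was thus different by -1.87 ± 0.24 and -2.68 ± 0.30 log2 (SE; edgeR adjusted p = 0.0223 for both). Both calls were lost against a 1.5-fold change (adjusted p 0.156 for Ifng and 0.0648 for Ccl3), with the covariate (0.224 and 0.344), and on leaving out unstimulated Mirc11-/- replicate 2 or 3, stimulated Mirc11-/- replicate 3, any unstimulated wild-type replicate or stimulated wild-type replicate 2 or 3. Ifng lies on chromosome 10 at 118441046 to 118445892 and Ccl3 on chromosome 11 at 83647844 to 83649355 (GRCm38). The values for Xcl1 and Tnf were -1.40 and -1.13 (adjusted p 0.13 and 0.167), for Ccl4 -1.85 (adjusted p = 0.174) and for Ccl1 -1.31 (adjusted p = 0.366), none past the threshold.

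**Figure D4:**
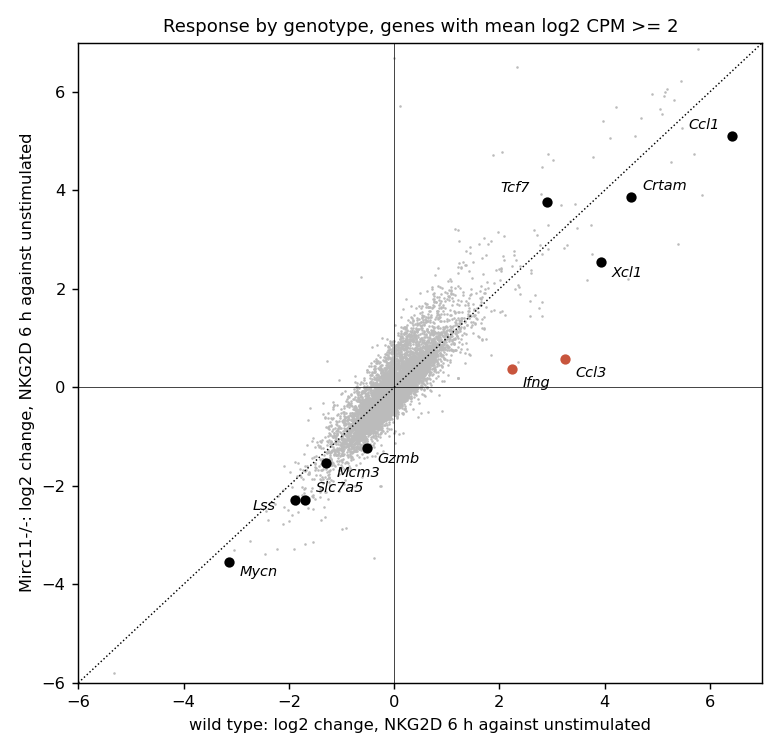
Log2 change on stimulation in wild-type (horizontal) and Mirc11-/- cells (vertical) for genes whose log2 CPM averaged 2 or more; grey points are 11027 genes and 30 more lie outside the axes, which run from -6 to 7. The dotted line marks equal responses; Ifng and Ccl3 (red), with log2 changes of 0.37 and 0.57 in the mutant and 2.24 and 3.25 in wild type, are the genes whose responses differed by the test.

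Gene groups had medians of the same sign in both genotypes for NF-kB subunits (0.67 in the mutant and 0.91 in wild type), NF-kB targets (0.71 and 0.78), AP-1 factors (-1.13 and -0.61) and ERK feedback genes (-1.39 and -1.05). The same held for replication (-0.99 and -0.83), cholesterol (-1.38 and -1.01), synthetases (-0.87 and -0.51) and ribosome biogenesis (-1.01 and -0.66). Medians of opposite sign were found for cytolytic genes (-0.20 in the mutant and 0.08 in wild type), glycolysis (-0.26 and 0.14), ribosomal proteins (-0.08 and 0.16), ubiquitin modifiers (-0.12 and 0.04), the Bcl2 family (-0.13 and 0.01), Gadd45 and CDK inhibitors (-0.02 and 0.20), sterol efflux (-0.02 and 0.20) and microRNA processing (0.08 and -0.09), and for 3 marker lists of other cell types. Outside Ifng and Ccl3 no gene of any list passed the test of the difference, at 17457 genes tested, so no group is called particular to the mutant.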

How the data were processed

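Polyadenylated RNA of 12 libraries was sequenced, 3 biological replicates in each of 4 groups per the series' design text. The authors deposited 1 table of expected counts for 50674 genes, already whole numbers. The submitters' processing notes name bcl2fastq, Trim Galore 0.4.1, Bowtie2 2.2.8, RSEM 1.3.0 and GRCm38. Overlapping genes may share reads, since neither annotation release nor strand setting is given in the sources used here. Of 17457 genes tested, 17411 matched the reference annotation.

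Genes were filtered with filterByExpr, scaled by TMM and tested with edgeR 4.0.16 (R 4.3.3; robust quasi-likelihood, 1 mean per group over 12 libraries, 8 residual degrees of freedom, Benjamini-Hochberg adjustment at 0.05). An interaction contrast tested the difference from the wild-type response. The code was tested on simulated data. Alternatives were DESeq2 1.42.0, limma 3.58.1 (voom), other scalings and filters, a 1.5-fold threshold, mutant libraries alone, a replicate block, a covariate for the sum of 548 vomeronasal genes, a background per kilobase from 1264 receptor genes subtracted, and each library left out.

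Named genes are the 15 largest rises and 15 largest falls (called, log2 CPM averaging 2 or more, groups not overlapping, named gene models), the 10 largest differences in CPM, up to 5 called members per list by size (up to 2 by p where none is called), a fixed set of effector and pathway genes, and genes differing from wild type. Aars, Mcm5, Mcm6, Nfkbia, Eomes, Tbx21, Il2rb and Nab1 were added after their values were seen. Members, lists and rules were chosen with earlier results of these data known. Some items are not reported here.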

Additional observations from a re-analysis of the deposited data

Results flagged for a closer look

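The responses of Ccl3 and Ifng, which encode an inflammatory chemokine and interferon gamma, differed between the genotypes by the edgeR interaction test. For Ccl3 the response in Mirc11-/- cells minus that in wild-type cells was -2.68 log2, with 38.1 to 48.5 CPM unstimulated and 45.2 to 84.9 CPM stimulated in the mutant and 268 to 389 CPM in stimulated wild-type libraries. For Ifng it was -1.87 log2.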

How the results depend on the processing

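Counts of higher and lower genes moved by over 1.5 times with no filter (6818 higher), against a 1.5-fold change (1665 and 863) and with the vomeronasal covariate (297 and 263). Leaving out 1 library gave 3488 to 4452 higher and 3272 to 3954 lower. The 2 differences from wild type became 47 with no filter, 4 with a stricter filter, 68 with DESeq2's Wald test, 4 with background subtracted and 0 to 19 on leaving out 1 library. In edgeR they became 0 against a 1.5-fold change (423 at an unadjusted p below 0.05) and 0 with the covariate (503). With no filter Ccl3 was not among them (adjusted p = 0.052).

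Same-numbered unstimulated and stimulated Mirc11-/- libraries correlated at 0.072, -0.065 and 0.141 in their deviations from the group means. Differently numbered ones correlated at -0.195 to 0.123. With 3 libraries per group these values cannot show whether same-numbered libraries share a source. With the replicate block 4155 genes were higher, 4165 lower and 13 differed from wild type.

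Of 210 called genes named here, 68 kept their call with the covariate, 207 with background subtracted and 63 in all 23 settings, the first included. With the covariate the sign turned for Gzmb (0.00), Prf1 (0.09), Gzma (0.05), Hcst (1.06), Hk2 (0.34), Pfkp (0.50), Slc1a4 (0.08), Trib3 (0.73), Herpud1 (0.11), Cox5a (0.12), Cyc1 (0.15), Isg15 (0.81), Tnrc6b (-0.09), Tmsb4x (0.31), Ms4a1 (-1.39), Eno1 (1.14), Rps27 (2.18) and Il2rb (0.54), in log2. On leaving out 1 library Il2rb ranged from -0.23 to 0.00, the latter without stimulated Mirc11-/- replicate 1. The cause was not tested.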
